A study of Homo sapiens with 6 samples.

Results

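Polycomb repressive complex 1 (PRC1) is built around a RING subunit and a PCGF subunit, and the genes that encode these subunits are described here in A549 cells after knockdown of CBX8. The members were chosen by symbol: RING1, RNF2, BMI1, PCGF1, PCGF2, PCGF3, PCGF5 and PCGF6, with COMMD3-BMI1, a read-through gene that runs through BMI1. They are 9 of the 28452 genes and 25 of the 84787 transcript entries of the deposited table. An entry belonged to a gene where its RefSeq accession, without any suffix that marks a repeated copy, mapped to the symbol, and entries were summed per gene. All 9 genes passed the filter on low counts.

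PRC1 is a chromatin complex that places a single ubiquitin on histone H2A and compacts nucleosomes. RING1 or RNF2 is the catalytic E3 ligase, and each pairs with one PCGF protein through RING domains. The PCGF protein helps to set the kind of complex: BMI1 and PCGF2 are found in canonical PRC1, which holds a Polycomb chromobox protein such as CBX8. The other PCGF proteins are found in variant complexes without a chromobox protein of that kind. BMI1 is known as an oncogene that represses the INK4A-ARF locus.

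The study measured RNA by sequencing in stable derivatives of A549, an established line from a human lung adenocarcinoma, made by lentiviral infection. There were 3 groups of 2 libraries: shCBX8-1 and shCBX8-2, which carried short hairpin RNAs against CBX8, and control, which carried a control hairpin RNA. What the first number in the shCBX8 titles stands for is not explained, and it is taken here as the hairpin. The labels do not say if the 2 libraries of each group are separate cultures, so the p-values reflect the scatter among these samples alone, and that scatter may be technical.

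Libraries held 64197784 to 67169537 estimated counts. Levels are given as CPM, counts scaled to a common library total with TMM factors (trimmed means of log ratios), and a difference is a log2 fold change from edgeR's quasi-likelihood test, two-sided, with its standard error (SE) and an adjusted p-value (Benjamini-Hochberg, all tested genes), at a threshold of 0.05. Cells expressed the epithelial keratins KRT8 (11700 to 17100 CPM over libraries) and KRT18 (8120 to 11800 CPM), with EPCAM at 3.05 to 8.39 CPM and the keratin KRT19 at 0.359 to 4.11 CPM, while the lung lineage markers NKX2-1, NAPSA, SFTPB and SFTPC were at 2.59 CPM or less. The leukocyte markers PTPRC, CD3E and LYZ were all at 0.489 CPM or less. The median absolute log2 difference between the libraries of a group was 0.128 for shCBX8-1, 0.24 for shCBX8-2 and 0.129 for control.

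CBX8, the targeted gene and a chromobox subunit of canonical PRC1, was measured at 7.79 and 7.70 CPM in shCBX8-1 libraries and 17.8 and 13.8 CPM in shCBX8-2 libraries, against 24.6 and 26.3 CPM in control libraries. Mean levels were 30.4% of control in shCBX8-1 and 61.9% of control in shCBX8-2. Every knockdown library lay below both control libraries, and CBX8 fell by 1.20 on the log2 scale over both hairpin groups (SE 0.126, edgeR adjusted p = 0.00755). That call ended without control replicate 1 (adjusted p = 0.112), control replicate 2 (0.139), shCBX8-1 replicate 1 (0.0641) or shCBX8-1 replicate 2 (0.0669), where the log2 difference ran from -1.25 to -1.16. The knockdown call also ended with both hairpin groups fitted as 1 group (edgeR adjusted p = 0.252). The hairpin groups differed from each other, with shCBX8-2 minus shCBX8-1 at 1.03 (SE 0.153, edgeR adjusted p = 0.0115).

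Of the 9 members, BMI1 was the one that passed the test against control, and it was lower in both hairpin groups. The read-through COMMD3-BMI1 had a higher mean in both, without passing. In shCBX8-2 this rested on replicate 2 (33.7 CPM), while replicate 1 (0.615 CPM) was below both control libraries (1.55 and 9.28 CPM). With all libraries in the fit, the sum of BMI1 and the read-through did not pass in any comparison. It passed in some of the alternative fits given below. In knockdown, the mean of both hairpin groups, minus control, 1 of 9 members passed and was lower, where 6.79% of all 17115 genes passed. In shCBX8-1 minus control 1 of 9 passed and was lower, against 2.47% of all genes, and in shCBX8-2 minus control 1 of 9 passed and was lower, against 12.7% of all genes.

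Between the hairpin groups, shCBX8-2 minus shCBX8-1, 0 of 9 members passed edgeR's test, where 9.82% of all genes passed. In that comparison 2 members had an unadjusted p under 0.05, as did 26.4% of all genes, and 1, PCGF1, passed DESeq2's Wald test, as did 17.3% of all genes. The median log2 difference of the members in knockdown minus control was -0.06, and that of all genes was -0.04. For shCBX8-1 minus control the medians were 0.03 for the members and -0.01 for all genes, and for shCBX8-2 minus control they were 0.00 and -0.04.

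**Figure D1:**
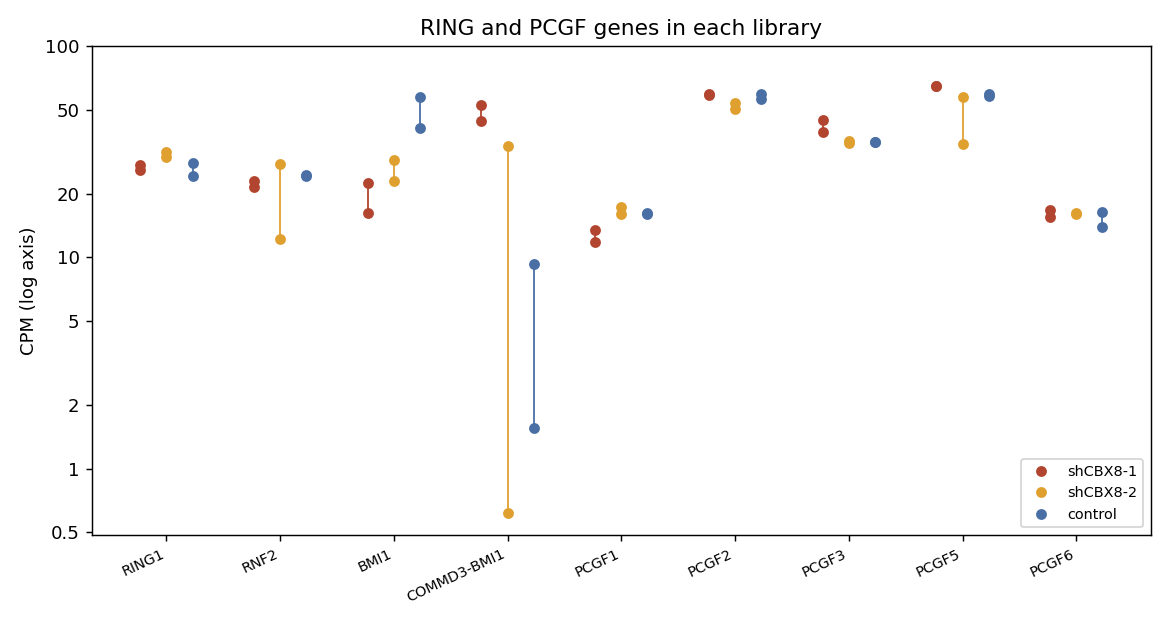
Level of each RING and PCGF gene in every library, in CPM on a log axis, with the libraries of shCBX8-1, shCBX8-2 and control as points joined by a line within a group. BMI1 is lower in all 4 knockdown libraries than in both control libraries, and COMMD3-BMI1 has the widest spread, from 0.615 CPM in a shCBX8-2 library to 52.8 CPM in a shCBX8-1 library.

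RING1, one of the alternative E3 ligases, had 26.0 and 27.5 CPM in shCBX8-1 libraries and 31.7 and 29.9 CPM in shCBX8-2 libraries, against 27.9 and 24.3 CPM in control libraries. The shCBX8-1 values lay within the control range, and both shCBX8-2 values lay above it. The log2 difference was 0.03 (SE 0.116) for shCBX8-1 and 0.24 (SE 0.116, edgeR adjusted p = 0.225) for shCBX8-2, and neither passed.

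The deposited table lists the RING1 transcript NM_002931 in 6 entries, 5 of them marked as copies. RING1 lies in the major histocompatibility region of chromosome 6 (33208500 to 33212716, GRCh38.p14), for which hg38 holds alternate haplotype sequences. The first entry held 33.2% and 38.8% of the gene's counts in shCBX8-1 libraries, 17.7% and 18.1% in shCBX8-2 libraries, and 17.6% and 18.9% in control libraries. With that entry alone in place of the sum, RING1 was called higher in shCBX8-1 than in control (1.03, edgeR adjusted p = 0.04). The same entry turned shCBX8-2 minus shCBX8-1 round to -0.83 (adjusted p = 0.0335). The summed level gave 0.21 for that difference and did not pass, so the calls on the single entry moved with the division of counts among the copies.

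RNF2, also called RING1B, the other E3 ligase, had 22.9 and 21.6 CPM in shCBX8-1 libraries and 12.3 and 27.5 CPM in shCBX8-2 libraries, against 24.6 and 24.1 CPM in control libraries. The shCBX8-2 libraries stood on either side of the control libraries. The log2 difference was -0.13 (SE 0.327) for shCBX8-1 and -0.29 (SE 0.328, edgeR adjusted p = 0.603) for shCBX8-2. The result for shCBX8-2 rested on which library was used: without replicate 2 it was -0.99 (adjusted p = 0.000417), and without replicate 1 it was 0.19 (adjusted p = 0.251).

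BMI1, the PCGF subunit also known as PCGF4, was estimated at 22.6 and 16.2 CPM in shCBX8-1 libraries and 23.1 and 29 CPM in shCBX8-2 libraries, against 57.5 and 41.1 CPM in control libraries. All 4 knockdown libraries were below both control libraries. Means were 19.4 ± 4.52 CPM in shCBX8-1, 26.0 ± 4.20 CPM in shCBX8-2 and 49.3 ± 11.6 CPM in control (SD, n = 2 each), which put shCBX8-1 at 39.3% and shCBX8-2 at 52.8% of control.

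BMI1 fell by 1.13 on the log2 scale over both hairpin groups (SE 0.189, edgeR adjusted p = 0.0212). It fell by 1.35 in shCBX8-1 (SE 0.229, edgeR adjusted p = 0.038) and by 0.92 in shCBX8-2 (SE 0.226, edgeR adjusted p = 0.0432). The hairpin groups did not pass against each other, with shCBX8-2 minus shCBX8-1 at 0.43 (SE 0.227, edgeR adjusted p = 0.287). The knockdown call ended without control replicate 1 (adjusted p = 0.214), control replicate 2 (0.151), shCBX8-1 replicate 1 (0.0819) or shCBX8-1 replicate 2 (0.109), with BMI1 lower by value each time. The shCBX8-1 call ended without any one of those 4 libraries (edgeR adjusted p from 0.214 to 0.301) and with repeated accessions left out (0.0534). The shCBX8-2 call ended without control replicate 1 (0.26), control replicate 2 (0.114), shCBX8-1 replicate 1 (0.0837), shCBX8-1 replicate 2 (0.0836) or shCBX8-2 replicate 1 (0.051), and with repeated accessions left out (0.0562).

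The BMI1 gene lies on chromosome 10 from 22321099 to 22331706, the read-through COMMD3-BMI1 from 22316388 to 22331484 and COMMD3 from 22316388 to 22320306, all on the plus strand of GRCh38.p14. COMMD3, an upstream gene whose protein belongs to a family with a COMM domain, shares its start with the read-through. In GENCODE 29 the read-through model has 14 exons and 1419 bases, of which 1000 (70.5%) are also exon of BMI1 and 419 (29.5%) are also exon of COMMD3, with 0 bases in neither. The BMI1 model has 10 exons and 3428 bases, and the start of 9 of those exons is shared with the read-through. A first exon of 486 bases is in BMI1 and absent from the read-through.

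**Figure D2:**
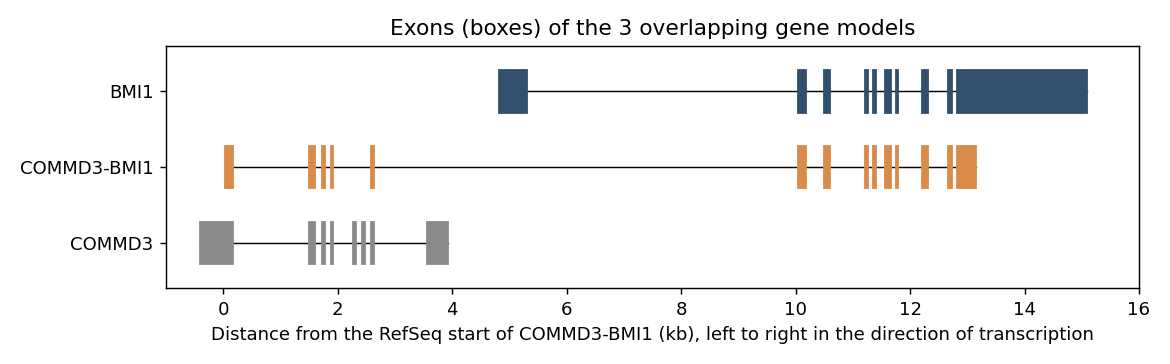
Exons of BMI1, COMMD3-BMI1 and COMMD3 in GENCODE 29, drawn to scale in kb from the RefSeq start of COMMD3-BMI1. Exon boxes of the read-through line up with those of COMMD3 on the left and of BMI1 on the right, and COMMD3 has 2 exons between the fourth and the fifth box of the read-through that the read-through lacks.

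The sequences at this join are shown because the join links exons of COMMD3 to exons of BMI1. Capitals mark bases shared with the second exon of BMI1, and lower case marks bases of COMMD3. The read-through runs from chr10:22318989-22319018 to chr10:22326431-22326490, BMI1 covers chr10:22326431-22326490, and COMMD3 runs from chr10:22318989-22319018 to chr10:22319939-22319992, all 5′ to 3′ on the plus strand of GRCh38.
COMMD3-BMI1: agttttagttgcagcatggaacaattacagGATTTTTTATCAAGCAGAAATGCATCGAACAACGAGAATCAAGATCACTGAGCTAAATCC
BMI1: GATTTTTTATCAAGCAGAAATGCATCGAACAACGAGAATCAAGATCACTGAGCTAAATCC
COMMD3: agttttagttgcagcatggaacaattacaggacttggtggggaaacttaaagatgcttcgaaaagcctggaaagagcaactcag
The BMI1 start codon follows 19 bases into the shared exon, so the coding exons of BMI1 are in both models. A read within them fits both entries, while a read in the first exon of BMI1, over the join or in the exons shared with COMMD3 fits one of the pair. The end of the read-through differs between annotations: the GENCODE 29 model stops 1942 bases before the BMI1 model, and the RefSeq gene ends at 22331484, close to the BMI1 end.

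The starts of the read-through and of BMI1 lie 4711 bases apart, and the RefSeq promoter windows around each start are shown because the 2 entries begin at different promoters. Capitals mark matches, on either strand, to the E-box CACGTG and the GC-box GGGCGG. The windows are chr10:22316138-22316437 for COMMD3-BMI1, shared with COMMD3, and chr10:22320849-22321148 for BMI1, both on the plus strand of GRCh38.p14.
COMMD3-BMI1: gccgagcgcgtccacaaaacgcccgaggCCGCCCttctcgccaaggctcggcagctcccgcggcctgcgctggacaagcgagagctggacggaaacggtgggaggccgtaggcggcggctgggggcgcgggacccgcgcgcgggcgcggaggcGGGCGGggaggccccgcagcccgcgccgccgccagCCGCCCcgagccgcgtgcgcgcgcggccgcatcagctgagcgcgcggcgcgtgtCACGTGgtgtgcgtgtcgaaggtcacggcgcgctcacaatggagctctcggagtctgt
BMI1: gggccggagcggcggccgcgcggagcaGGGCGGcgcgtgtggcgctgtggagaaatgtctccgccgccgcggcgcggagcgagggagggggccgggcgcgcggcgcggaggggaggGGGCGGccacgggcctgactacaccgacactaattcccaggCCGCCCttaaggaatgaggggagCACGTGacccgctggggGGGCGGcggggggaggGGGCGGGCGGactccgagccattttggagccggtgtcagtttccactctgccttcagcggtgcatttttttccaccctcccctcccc
Both of these windows hold a CACGTG, which 7.26% of 35116 RefSeq promoter windows hold, and a GGGCGG, which 45% hold. RefSeq lists a further BMI1 window, chr10:22321706-22322005, which holds a GGGCGG and no CACGTG. None of the windows holds TATAAA, present in 11.5% of RefSeq windows. A match describes the letters and is not a site of binding.

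COMMD3-BMI1 was estimated at 44.4 and 52.8 CPM in shCBX8-1 libraries and 0.615 and 33.7 CPM in shCBX8-2 libraries, against 1.55 and 9.28 CPM in control libraries. Both shCBX8-1 libraries and replicate 2 of shCBX8-2 lay above the control libraries, and replicate 1 of shCBX8-2 lay below them. The log2 difference was 3.16 (SE 1.47, edgeR adjusted p = 0.335) for shCBX8-1 and 1.66 (SE 1.40, edgeR adjusted p = 0.48) for shCBX8-2, and neither passed. The outcome moved with the shCBX8-2 libraries. For shCBX8-1 the difference passed at 3.16 with only the compared libraries in the fit (edgeR adjusted p = 0.00705), 3.17 without shCBX8-2 replicate 1 (0.00802) and 3.16 without shCBX8-2 replicate 2 (0.0081). Without shCBX8-2 replicate 1 the knockdown difference was 2.91 (adjusted p = 0.00727). Without shCBX8-2 replicate 2 the shCBX8-2 difference had the other sign, -3.14 (adjusted p = 0.0404).

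BMI1 took 33.7% of the counts of BMI1 and the read-through together in shCBX8-1 replicate 1 (95% Clopper-Pearson interval 32.3 to 35.1%) and 23.4% in replicate 2 (22.2 to 24.7%). In shCBX8-2 it took 97.4% in replicate 1 (96.5 to 98.1%) and 46.2% in replicate 2 (44.7 to 47.8%). In control it took 97.4% in replicate 1 (96.8 to 97.8%) and 81.6% in replicate 2 (80.2 to 82.9%). The share was low in both shCBX8-1 libraries and in one shCBX8-2 library, while the other shCBX8-2 library matched the higher control library. These intervals treat each estimated count as a read assigned with certainty, so they leave out any error in the division between the entries. The distance between libraries of a group is several times wider than the intervals.

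The sum of BMI1 and COMMD3-BMI1, which does not depend on how reads were divided between these entries, was 66.9 and 69.0 CPM in shCBX8-1 libraries and 23.7 and 62.7 CPM in shCBX8-2 libraries, against 59.0 and 50.3 CPM in control libraries. Both shCBX8-1 libraries and one shCBX8-2 library were above the control libraries, and the other shCBX8-2 library was below them. The log2 difference of the sum was -0.01 over both hairpin groups (SE 0.332, edgeR adjusted p = 0.986). It was 0.31 for shCBX8-1 (SE 0.384, adjusted p = 0.763) and -0.34 for shCBX8-2 (SE 0.385, adjusted p = 0.607).

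None of these sums passed, whereas BMI1 alone passed in each of these 3 comparisons. The outcome again depended on shCBX8-2. Without its replicate 1 the sum was higher in knockdown, 0.27 (SE 0.0787, edgeR adjusted p = 0.0494), and without its replicate 2 it was lower, -0.45 (SE 0.0787, edgeR adjusted p = 0.00406). With only the shCBX8-1 and control libraries in the fit, the sum was higher in shCBX8-1, 0.32 (SE 0.0817, edgeR adjusted p = 0.0336).

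The read-through also shares exons with COMMD3, so the sum can still depend on that division. With COMMD3 added, the level over the whole locus was 90.9 and 93.7 CPM in shCBX8-1 libraries and 57.5 and 86.1 CPM in shCBX8-2 libraries, against 88.4 and 74.2 CPM in control libraries. Its knockdown difference was 0.00 (SE 0.161, edgeR adjusted p = 0.996). COMMD3 itself was at 24.0 and 24.8 CPM in shCBX8-1 libraries and 33.8 and 23.4 CPM in shCBX8-2 libraries, against 29.4 and 23.9 CPM in control libraries, and its knockdown difference was -0.01 (SE 0.167, adjusted p = 0.971).

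**Figure D3:**
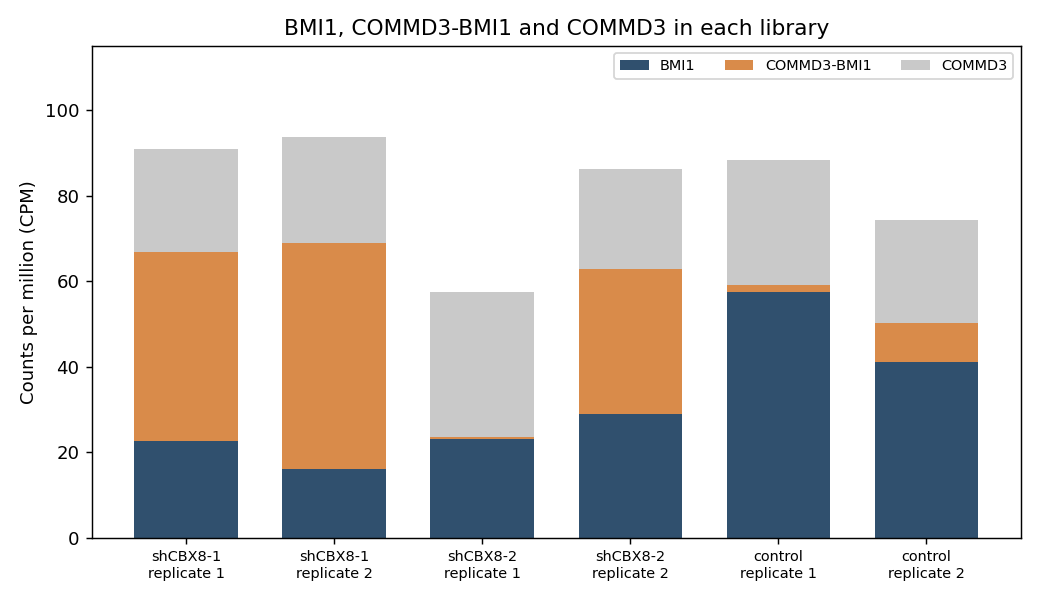
Level of BMI1, COMMD3-BMI1 and COMMD3 in CPM, stacked, with one bar for each library of shCBX8-1, shCBX8-2 and control. The BMI1 part is between 16.2 and 29 CPM in knockdown libraries and 41.1 and 57.5 CPM in control libraries, and the COMMD3-BMI1 part is between 33.7 and 52.8 CPM in every knockdown library other than shCBX8-2 replicate 1, where the whole bar is the shortest at 57.5 CPM.

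PCGF1, the PCGF subunit of the variant complex with KDM2B and BCOR, had 11.8 and 13.5 CPM in shCBX8-1 libraries and 17.3 and 16.06 CPM in shCBX8-2 libraries, against 16.24 and 16.02 CPM in control libraries. Both shCBX8-1 libraries lay below the other 4 libraries. The log2 difference was -0.35 for shCBX8-1 (SE 0.128, edgeR adjusted p = 0.223) and 0.05 for shCBX8-2 (SE 0.127, edgeR adjusted p = 0.843). Between hairpin groups it was 0.40 (SE 0.128), with an adjusted p of 0.1 from edgeR and 0.0426 from DESeq2's Wald test.

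PCGF2, also called MEL18, the close relative of BMI1 in canonical PRC1, had 59.0 and 58.4 CPM in shCBX8-1 libraries and 53.4 and 50.1 CPM in shCBX8-2 libraries, against 56.2 and 59.1 CPM in control libraries. Both shCBX8-2 libraries lay below the other 4 libraries by a small amount. The log2 difference was 0.03 (SE 0.0841) for shCBX8-1 and -0.15 (SE 0.0842, edgeR adjusted p = 0.276) for shCBX8-2.

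PCGF3 and PCGF5 are alternative subunits of the variant complexes that hold AUTS2 or FBRS. PCGF3 had 44.4 and 39.1 CPM in shCBX8-1 libraries and 35.4 and 34.7 CPM in shCBX8-2 libraries, against 35.0 and 35.0 CPM in control libraries. Both shCBX8-1 libraries were above the other 4, with a log2 difference of 0.25 that did not pass (SE 0.102, edgeR adjusted p = 0.269). PCGF5 had 64.8 and 65.0 CPM in shCBX8-1 libraries and 34.4 and 57.4 CPM in shCBX8-2 libraries, against 59.4 and 57.7 CPM in control libraries.

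Replicate 1 of shCBX8-2 was the low library for PCGF5, and the log2 difference for shCBX8-2 was -0.35 (SE 0.213, edgeR adjusted p = 0.326). Without replicate 2 of shCBX8-2 it was -0.77 (edgeR adjusted p = 0.000218), and without replicate 1 it was -0.01 (edgeR adjusted p = 0.94). PCGF6, the subunit of the variant complex with E2F6, MGA and L3MBTL2, had 15.4 and 16.7 CPM in shCBX8-1 libraries and 16.22 and 16.04 CPM in shCBX8-2 libraries, against 13.9 and 16.4 CPM in control libraries. The PCGF6 ranges overlapped among all groups, with log2 differences of 0.09 for shCBX8-1 (SE 0.133) and 0.09 for shCBX8-2 (SE 0.133).

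**Figure D4:**
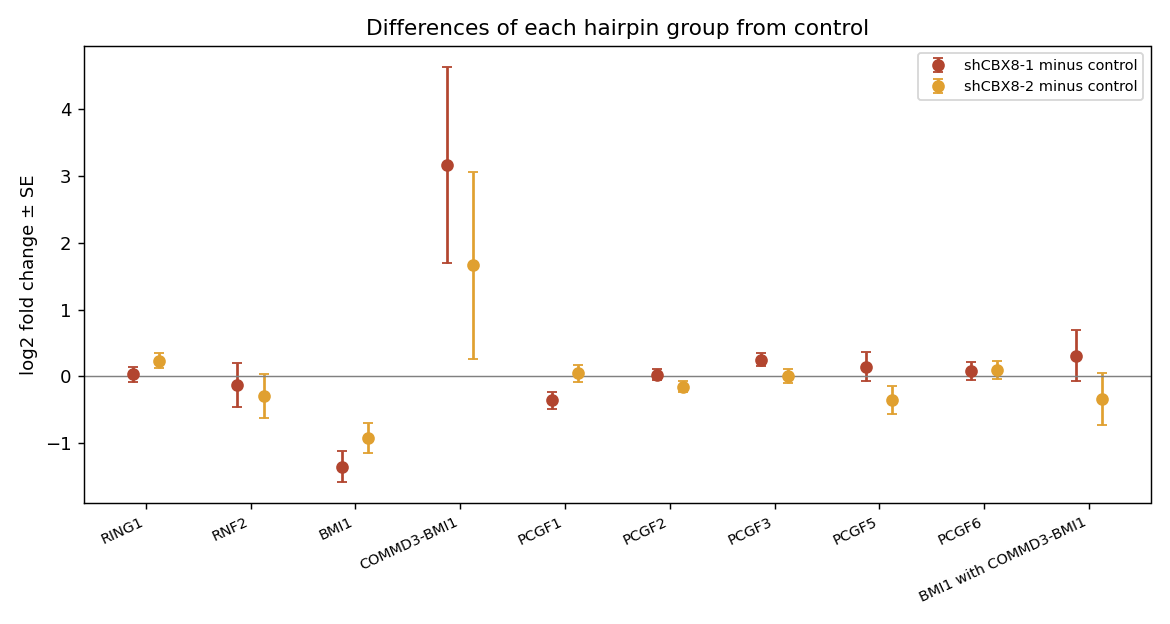
Log2 fold change ± SE from edgeR for each member, and for BMI1 with COMMD3-BMI1 summed, for shCBX8-1 minus control and shCBX8-2 minus control. BMI1 is at -1.35 and -0.92, its sum with the read-through has points on both sides of 0 with bars that cross it, and COMMD3-BMI1 carries the widest bars, 1.47 and 1.40.

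The low values of RNF2, PCGF5 and the BMI1 locus fell in the same library, shCBX8-2 replicate 1, and that library differed from the others along GC content. Across 15632 tested genes with a GENCODE 29 transcript, the Spearman correlation of GC content with a library's deviation from the mean log2 CPM of all 6 was 0.332 in shCBX8-2 replicate 1 and -0.248 in shCBX8-2 replicate 2. In the shCBX8-1 and control libraries it was between -0.156 and -0.00751. In shCBX8-2 replicate 1 the fifth of genes lowest in GC had a median deviation of -0.32 and the fifth highest in GC had 0.11.

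PCGF5, at 35.1% GC, stood at percentile 0.454 of the tested genes and deviated by -0.68 in that library. RNF2, at 40.2% GC and percentile 11.1, deviated by -0.81, and BMI1, at 40.1% and percentile 10.3, by -0.32. Of the members with more GC, RING1 (60.6%) deviated by 0.19, PCGF1 (53.5%) by 0.21, PCGF2 (58%) by -0.07 and PCGF3 (52.5%) by -0.07. PCGF6, at 43.5% GC, deviated by 0.04, COMMD3-BMI1, at 43.6% GC, by -3.89 and COMMD3, at 41.6% GC, by 0.36. BMI1 was lower still in the shCBX8-1 libraries, at -0.35 and -0.83. The part of GC content in these values was not tested.

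The transcript entries were also tested one by one. Of the 25 member entries 22 were tested, among 40859 entries in all, and 0 passed edgeR's test in knockdown minus control, where 0% of all entries passed. In shCBX8-1 minus control 0 passed (0% of all entries), in shCBX8-2 minus control 0 passed (0% of all entries) and in shCBX8-2 minus shCBX8-1 0 passed (0.00245% of all entries). Unadjusted p-values under 0.05 were found for 5 of the 22 in knockdown, 6 in shCBX8-1, 3 in shCBX8-2 and 3 between the hairpin groups. Over all 40859 entries the shares under that limit were 8.58% in knockdown, 6.82% in shCBX8-1, 9.91% in shCBX8-2 and 9.4% between the hairpin groups. Every tested entry of PCGF2 had an unadjusted p under 0.05 in knockdown and in shCBX8-1, and these were most of the member entries that did. They divide the counts of a single gene, so they are not separate results. No other tool was run on the entries.

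The counts of PCGF2 were divided differently among its entries from library to library. Its entry NM_007144 had 2938 and 3103 counts in shCBX8-1 libraries and 101 and 2591 counts in shCBX8-2 libraries, against 118 and 60 counts in control libraries. Its entry NM_001369614 had 0 and 0 counts in shCBX8-1 libraries and 2517 and 124 counts in shCBX8-2 libraries, against 2571 and 2460 counts in control libraries. NM_007144 was thus the main entry in both shCBX8-1 libraries and in shCBX8-2 replicate 2, and NM_001369614 in shCBX8-2 replicate 1 and both control libraries.

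The libraries that favoured NM_007144 were the same 3 in which the read-through took the larger share of the counts of BMI1 and COMMD3-BMI1, 53.8 to 76.6%. The share of PCGF2 counts that changed entry was 89.3 to 90.8% between shCBX8-1 and control libraries, 79.2% between the shCBX8-2 libraries, 4.35% between the shCBX8-1 libraries and 18.2% between the control libraries. Over 7646 genes with several transcripts and at least 200 counts in every library, the median gene exchanged 9.62 to 10.4% within a group and 9.85 to 10.9% between groups. Whether these exchanges come from the cells or from the estimation of transcript counts was not tested.

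PCGF5 was divided over 4 transcripts with counts, and the share of NM_032373 was 59.1% and 21.8% in shCBX8-1 libraries and 21.1% and 35.5% in shCBX8-2 libraries, against 5.74% and 36.3% in control libraries. The ranges of all groups overlapped, and libraries of the same group also differed. The widest gap lay between a shCBX8-1 library (59.1%) and a control library (5.74%). The non-coding entry NR_046310 took 56.6% in shCBX8-2 replicate 1 and 20.9 to 29.1% in the other 5 libraries. The PCGF6 entry NM_032154 had 38 and 229 counts in shCBX8-2 libraries and 0 in every shCBX8-1 and control library. These counts are estimates divided between entries, so a 0 sets no limit on the level of the transcript.

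PCGF3 kept a steadier division, with NM_006315 at 59.2% and 58.5% in shCBX8-1 libraries and 66.7% and 59.5% in shCBX8-2 libraries, against 65.4% and 58.6% in control libraries. BMI1, COMMD3-BMI1, PCGF1 and RNF2 have a single entry each.

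**Figure D5:**
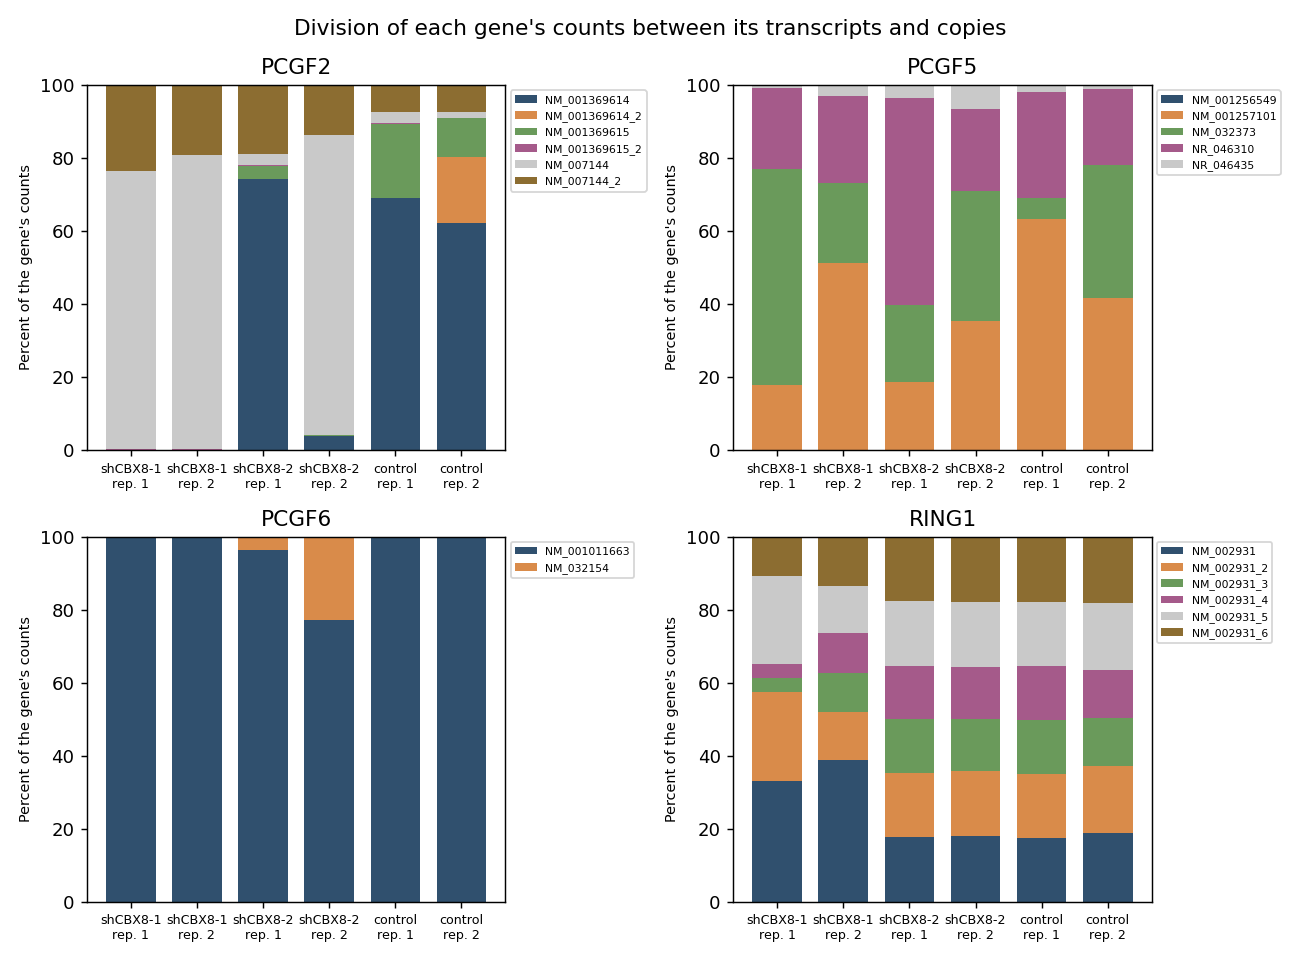
Percent of the counts of PCGF2, PCGF5, PCGF6 and RING1 taken by each transcript entry, as stacked bars for every library of shCBX8-1, shCBX8-2 and control; a suffix marks a repeated copy. The PCGF2 bars exchange NM_001369614 for NM_007144 in both shCBX8-1 libraries and one shCBX8-2 library, and the RING1 copies have nearly equal shares except in shCBX8-1.

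Levels per length, in CPM per kb of the GENCODE 29 models and over coding entries alone, are given for the members other than PCGF2 and COMMD3-BMI1. Among those members RING1 had the highest mean over the 6 libraries, 15.9 CPM per kb, and a range of 13.9 to 18.1. BMI1 followed with a mean of 9.20 CPM per kb, but with 6.58 and 4.71 in shCBX8-1 libraries and 6.73 and 8.46 in shCBX8-2 libraries, against 16.77 and 11.97 in control libraries. In control libraries BMI1 and RING1 overlapped, and in knockdown libraries the BMI1 entry alone was below RING1. That order depends on how counts were divided, since the read-through holds the coding exons of BMI1 and is left out here. The read-through took 66.3 and 76.6% of the counts of the pair in shCBX8-1 libraries and 53.8% in shCBX8-2 replicate 2. PCGF1 (8.45), PCGF6 (7.12), PCGF3 (6.55), RNF2 (6.14) and PCGF5 (5.63) came next as mean CPM per kb, and neighbours in that order overlapped in their ranges over libraries.

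Among 12 canonical PRC1 partners, the chromobox, PHC and SCM genes, 1 rose and 1 fell in knockdown, where 6.79% of all genes passed, and the median log2 difference was 0.05 against -0.04 for all genes. The gene that fell was CBX8. CBX2, another chromobox subunit, had 58.1 and 58.9 CPM in shCBX8-1 libraries and 92.0 and 81.9 CPM in shCBX8-2 libraries, against 51.7 and 57.9 CPM in control libraries. It rose by 0.38 in knockdown (SE 0.0867, edgeR adjusted p = 0.0499) and by 0.67 in shCBX8-2 (SE 0.0989, edgeR adjusted p = 0.00906), and shCBX8-1 did not pass (0.09, adjusted p = 0.709). In knockdown it did not pass with a replicate block (edgeR adjusted p = 0.0902), with no filter on low counts (0.0514) or with both hairpin groups fitted as 1 group (0.468). Nor did it with the 3 genes of the BMI1 locus as 1 entry (0.0503). The knockdown call ended without control replicate 1 (0.281), control replicate 2 (0.199), shCBX8-1 replicate 1 (0.147) or shCBX8-1 replicate 2 (0.15), and the shCBX8-2 call ended without control replicate 1 (0.0827) or control replicate 2 (0.0631).

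Of 23 variant PRC1 partners 0 passed edgeR's test in knockdown, where 6.79% of all genes passed. An unadjusted p under 0.05 was found for 5 of them (23.7% of all genes) and 2 passed DESeq2's Wald test (14.3% of all genes), and the median was 0.02 against -0.04 for all genes. BCORL1, a corepressor of the complex with PCGF1, was the 1 that passed in shCBX8-2. It had 20.2 and 21.7 CPM in shCBX8-1 libraries and 18.0 and 15.1 CPM in shCBX8-2 libraries, against 22.9 and 28.4 CPM in control libraries. All knockdown libraries were below both control libraries, and BCORL1 fell by 0.63 in shCBX8-2 (SE 0.155, edgeR adjusted p = 0.0428). It did not pass with a replicate block (edgeR adjusted p = 0.0719), with no filter on low counts (0.051) or with only the compared libraries in the fit (0.09). The call ended without control replicate 1 (0.0897), control replicate 2 (0.229), shCBX8-1 replicate 1 (0.097) or shCBX8-1 replicate 2 (0.0988).

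Of 14 tested genes for removal of ubiquitin from H2A, from a list of 15, 1 rose in knockdown and none fell, a share near the 6.79% of all genes that passed, with a median of 0.03 against -0.04 for all genes. It was HCFC1, a transcriptional cofactor bound by the deubiquitinase BAP1, with 153.8 and 153.7 CPM in shCBX8-1 libraries and 200 and 190.7 CPM in shCBX8-2 libraries, against 130.8 and 136.7 CPM in control libraries. The groups did not overlap, and HCFC1 rose by 0.37 in knockdown (SE 0.0616, edgeR adjusted p = 0.0207). With both hairpin groups fitted as 1 group it did not pass (edgeR adjusted p = 0.305). The call ended without control replicate 1 (0.17), control replicate 2 (0.169), shCBX8-1 replicate 1 (0.0864) or shCBX8-1 replicate 2 (0.0892). In shCBX8-2 it rose by 0.55 (SE 0.0703, edgeR adjusted p = 0.00617), a call that ended without control replicate 1 (0.0664) or control replicate 2 (0.0617).

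Of 4 tested neighbours of BMI1 on chromosome 10, from a list of 5, 0 passed edgeR's test in knockdown (6.79% of all genes). An unadjusted p under 0.05 was found for 0 (23.7% of all genes), and 0 passed DESeq2's Wald test (14.3% of all genes). With 4 genes, a 0 does not set these neighbours apart from all genes. Their median was 0.01 against -0.04 for all genes.

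Of 6 tested genes known from other cells to be repressed by BMI1, from a list of 7, 0 passed edgeR's test in knockdown. Of all genes 6.79% passed. An unadjusted p under 0.05 was found for 0 of the 6 (23.7% of all genes), and 0 passed DESeq2's Wald test (14.3% of all genes). With 6 genes, a 0 does not set the list apart from all genes. Its median was -0.05 against -0.04 for all genes. CDKN2A, the best known target of BMI1, is deleted in A549 and had 0 counts in all 6 libraries, as did CDKN2B. CDKN1A, which encodes the cell cycle inhibitor p21, had 695 and 705 CPM in shCBX8-1 libraries and 484 and 438.5 CPM in shCBX8-2 libraries, against 603 and 591 CPM in control libraries. It was thus above control in one hairpin group and below it in the other.

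CDKN1A fell by 0.37 in shCBX8-2 (SE 0.069, edgeR adjusted p = 0.0183), a call that ended without control replicate 1 (0.0874) or control replicate 2 (0.0847). In shCBX8-1 its log2 difference was 0.23 (SE 0.0689, edgeR adjusted p = 0.155). That difference passed with only the compared libraries in the fit (edgeR adjusted p = 0.00717), without shCBX8-2 replicate 1 (0.00789), without shCBX8-2 replicate 2 (0.00741) and by DESeq2's Wald test (0.0399). The hairpin groups differed, with shCBX8-2 minus shCBX8-1 at -0.60 (SE 0.0691, edgeR adjusted p = 0.00527).

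In shCBX8-1 minus control CBX8 was the one gene of these 5 lists that passed edgeR's test. Among the other 4 lists, those with an unadjusted p under 0.05 in shCBX8-1 were 3 variant partners, 3 deubiquitination genes, 0 neighbours and 2 genes repressed by BMI1, and DESeq2's Wald test passed 0, 1, 0 and 1 of them. Of all genes 2.47% passed edgeR's test in shCBX8-1, 17.2% had an unadjusted p under 0.05 and 8.63% passed DESeq2's test. In shCBX8-2 minus control the genes that passed were CBX2 and HCFC1, which rose, and CBX8, BCORL1 and CDKN1A, which fell, and 12.7% of all genes passed.

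Among 13653 genes with a mean of at least 1 CPM, the 5 whose pattern over the 6 libraries was most like that of BMI1 were C4orf36, NR_027237, SLC51B, SRP14-DT and UNC5CL. Likeness was the root mean square difference of centred log2 CPM, which ran from 0.103 for C4orf36 to 0.154 for UNC5CL, with Pearson r between 0.967 and 0.992. SLC51B, a subunit of a bile acid and steroid transporter, had 1.886 and 1.501 CPM in shCBX8-1 libraries and 1.955 and 2.798 CPM in shCBX8-2 libraries, against 4.93 and 4.53 CPM in control libraries. The points share the 6 libraries, and the genes were ranked on these values, so no test is given.

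The genes most like COMMD3-BMI1 were GOLGA8S, TP53TG3B, SUGT1P4-STRA6LP-CCDC180, SNHG22 and CACNB4, at larger distances of 0.93 to 1.65. GOLGA8S and TP53TG3B belong to families of near-identical copies, and SUGT1P4-STRA6LP-CCDC180 is itself a read-through gene. How common such genes are among all genes was not counted, and whether these traits bear on the pattern was not tested. All 5 had their lowest level in shCBX8-2 replicate 1, where GOLGA8S was at 0.0788 CPM and SNHG22 and CACNB4 were listed at 0. They were ranked by likeness to COMMD3-BMI1, which is itself lowest in that library, so this shared low follows largely from the choice. Their levels were low throughout, at 3.63 CPM or less in every library.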

How the data were processed

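RNA had been sequenced from 6 A549 libraries in 3 groups. The deposited values are estimated counts (expected counts) per RefSeq transcript, and all were whole numbers. The submitters' processing notes name HISAT2 2.2.1, StringTie 2.2.1, DESeq2 1.34.0 and hg38. For the annotation, the strand setting and the counting step the sources used here give no name. Of 84787 entries 99.45% were matched to genes by RefSeq (GRCh38.p14) or GENCODE 29 tables, and entries were summed per gene to 28452 genes. In R 4.3.3, edgeR 4.0.16 filtered genes with filterByExpr (minimum count 10, minimum total 15), scaled libraries by TMM and fitted 1 quasi-likelihood model to all libraries (17115 genes, 3 residual degrees of freedom, common dispersion 0.0369). The steps were tested on simulated data. Those data had an equal spread in every group, smaller than that measured, and the same change in both hairpin groups. That test does not cover the wider spread of shCBX8-2. DESeq2 1.42.0 was an alternative, as were other filters, fits and single libraries left out. Centred log2 CPM used a prior count of 2. Sequences came from GENCODE 29 and RefSeq tables. The genes named are the members, COMMD3, the targeted gene CBX8, at most 4 genes of each list that passed in knockdown or either hairpin group against control, and the 5 most alike to BMI1 and to COMMD3-BMI1. Members and lists were chosen with earlier results of these data known. GC content was examined after the values were seen. Library numbers did not pair the samples, as given with the alternatives.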

Additional observations from a re-analysis of the deposited data

Results flagged for a closer look

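The hairpin groups differed from each other in 4 of the genes checked, by edgeR's test of the difference, which 9.82% of all genes passed. Those checked were the 9 members, COMMD3, CBX8, CBX2, HCFC1, BCORL1 and CDKN1A. The 9 members, COMMD3 and BCORL1 did not pass that test. The genes most like BMI1 and COMMD3-BMI1 were not checked. CBX2, HCFC1 and CDKN1A were named because they passed against control, in comparisons that use the same shCBX8-2 libraries. Their tests here are therefore not independent of that choice. For CBX8 the log2 difference shCBX8-2 minus shCBX8-1 was 1.03, for CBX2 0.57, for HCFC1 0.35 and for CDKN1A -0.60. The edgeR adjusted p-values were 0.0115 for CBX8, 0.0182 for CBX2, 0.0293 for HCFC1 and 0.00527 for CDKN1A. CDKN1A was below control in both shCBX8-2 libraries and above control in both shCBX8-1 libraries, and the other 3 genes were higher in both shCBX8-2 libraries than in both shCBX8-1 libraries. Without shCBX8-1 replicate 1 or 2 the calls on CBX8 (adjusted p 0.119 and 0.115), CBX2 (0.15 and 0.136) and HCFC1 (0.176 and 0.172) ended, and that on CDKN1A ended without shCBX8-1 replicate 2 (0.0506). The HCFC1 call also ended without either control library, with a replicate block (edgeR adjusted p = 0.0582) and with only the compared libraries in the fit (0.0696).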

How the results depend on the processing

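The library numbers did not pair the samples: deviations from the group means correlated by -0.00992 for shCBX8-1 and control, -0.0171 for shCBX8-2 and control and 0.0164 for shCBX8-2 and shCBX8-1. With a replicate block 1 member passed in knockdown and 0 in shCBX8-1 or shCBX8-2 against control, with BMI1 at an edgeR adjusted p of 0.0361, 0.0603 and 0.0599, and 696 genes passed in knockdown against 1162 without the block. BMI1 kept its sign under every alternative. Leaving out 1 library gave 0 to 3 members passed in knockdown, 0 to 2 in shCBX8-1, 0 to 4 in shCBX8-2 and 0 to 4 between hairpin groups, while all genes passed in knockdown numbered 1 without control replicate 1, 1 without control replicate 2, 29 and 16 without shCBX8-1 replicate 1 or 2, and 3244 and 4467 without shCBX8-2 replicate 1 or 2. The 4 members in shCBX8-2 and the 4 between hairpins passed without shCBX8-2 replicate 2, where 5515 and 5104 of 17857 genes passed, and the 2 in shCBX8-1 where 2319 or more did. Other settings that moved the count of members passed were both hairpins as 1 group (0 in knockdown, 27 of all genes), no filter (0 in shCBX8-1, 0 in shCBX8-2), the compared libraries alone (2 in shCBX8-1, 0 in shCBX8-2), repeated accessions left out (0 in shCBX8-2, 1 between hairpins, and 1 in shCBX8-1, where RING1 passed in place of BMI1), DESeq2's Wald test (1 between hairpins) and the 3 genes of the locus as 1 entry (0 in each group against control, since BMI1 then has no entry of its own). DESeq2's Wald test passed 2441 of all genes in knockdown, 1477 in shCBX8-1, 3560 in shCBX8-2 and 2958 between hairpins, each over 1.5 times edgeR's count. The sum of BMI1 and COMMD3-BMI1 in knockdown changed sign to 0.00096 with DESeq2's size factors, 0.00097 with its Wald test, 0.024 with both hairpins as 1 group and 0.0016 with COMMD3 added, and the shCBX8-1 sum passed at 0.32 with the compared libraries alone. Leaving out 1 library, this sum ran from -0.45 to 0.27 in knockdown, 0.22 to 0.45 in shCBX8-1, -1.21 to 0.21 in shCBX8-2 and -1.52 to -0.10 between hairpins. Ranges that crossed 0 in the same way were, in knockdown, COMMD3 -0.16 to 0.14, PCGF5 -0.31 to 0.069, PCGF6 -0.026 to 0.22 and RNF2 -0.56 to 0.032. In shCBX8-1 they were COMMD3 -0.26 to 0.042, PCGF6 -0.016 to 0.22 and RING1 -0.047 to 0.15. In shCBX8-2 they were COMMD3-BMI1 -3.14 to 3.48, COMMD3 -0.17 to 0.34, PCGF3 -0.011 to 0.016, PCGF6 -0.035 to 0.21 and RNF2 -0.99 to 0.19. Between hairpins they were COMMD3 -0.046 to 0.47, PCGF6 -0.074 to 0.038 and RNF2 -0.86 to 0.32. COMMD3 in knockdown was 0.00075 with DESeq2's size factors and with its Wald test. PCGF3 in shCBX8-2 was -0.010 without a filter, -0.013 with the compared libraries alone and -0.011 with repeated accessions left out, and PCGF6 between hairpins was -0.019, -0.021 and -0.018 under the same settings. With repeated accessions left out PCGF2 in shCBX8-1 was -0.044 and RING1 between hairpins -0.83. Why these values moved was not tested, apart from the RING1 copies described above. With 2 libraries a group and 3 residual degrees of freedom, the spread of shCBX8-2 enters every test.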
